A study of Mus musculus with 2 samples.

Results

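Pericytes and vascular smooth muscle cells, the mural cells that wrap the small vessels of the brain, made up 228 of the 4305 cells used from the mouse basolateral amygdala. A cell was counted as mural when 11 marker genes (Kcnj8, Abcc9, Rgs5, Vtn, Pdgfrb, Higd1b, Atp13a5, Ndufa4l2, Acta2, Tagln and Myh11) supplied at least 1% of its unique molecules (UMIs). A mural cell was called smooth muscle when Acta2, Tagln and Myh11 together gave 5 or more UMIs, and a pericyte otherwise. These values chose the cells, so the levels of the 11 genes are given as a description.

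The cells came from adult C57BL/6 mice that received vehicle or FGF21, a liver hormone, the latter as a daily dose of 1 mg/kg over 3 days. Each treatment pooled the tissue of 3 mice, which was digested with pronase in the presence of the transcription blocker actinomycin D and then sorted for tdTomato fluorescence and Hoechst viability. The series title concerns cells that express KLB, the co-receptor of FGF21, and the labels used here do not say which allele or virus drove tdTomato, nor the sex of the mice. Each treatment gave 1 library, so there are no replicates: no test was made, and every 95% interval below covers counting error only.

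Pericytes sit in the basement membrane of capillaries, where they receive PDGF signals from endothelial cells, help form the blood-brain barrier and adjust capillary width. Those of the brain carry an ATP-sensitive potassium channel made of Kcnj8 and Abcc9. Smooth muscle cells encircle arterioles and contract through smooth muscle actin and myosin, which Acta2 and Myh11 encode.

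The mural share differed between the libraries. The vehicle library held 187 mural cells among 2354 (7.94%, exact 95% interval 6.88 to 9.11), and the FGF21 library held 41 among 1951 (2.10%, 1.51 to 2.84). Pericytes numbered 175 (7.43%) and 34 (1.74%), and smooth muscle cells 12 (0.510%) and 7 (0.359%). The mural and pericyte shares had intervals that do not overlap between the libraries. Smooth muscle made up 6.42% (3.36 to 10.9) of the mural cells with vehicle and 17.1% (7.15 to 32.1) with FGF21, and these intervals overlap. With 1 library per treatment, the treatment and the preparation of a library cannot be told apart. Across the settings tried, the mural share stayed between 6.67% and 8.28% in the vehicle and between 1.71% and 2.41% in the FGF21 library.

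**Figure D1:**
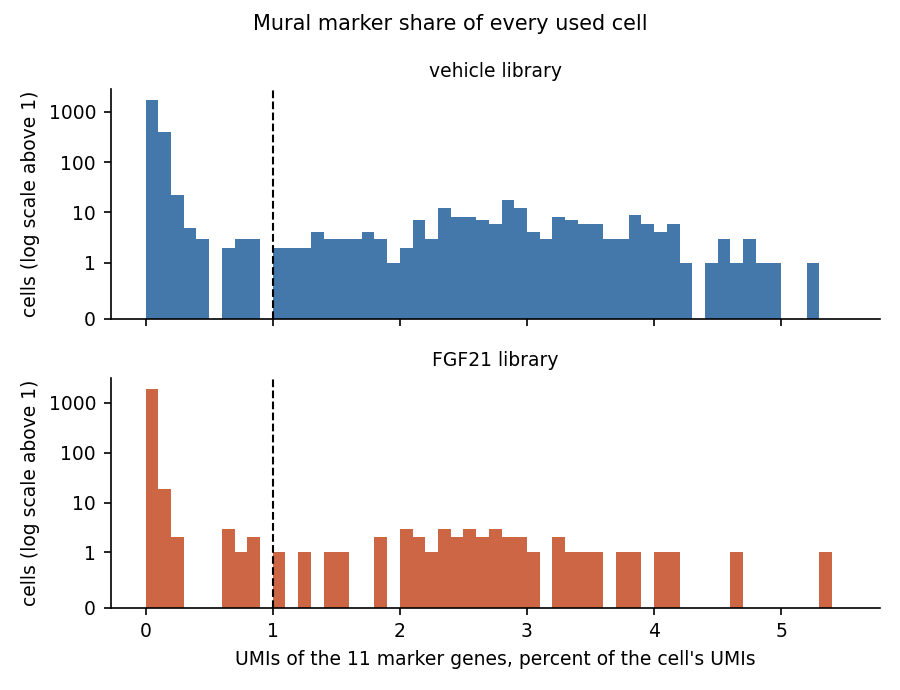
Histogram of the share of each used cell's UMIs that came from the 11 marker genes, in percent (0.1 point bins), with the number of cells on a scale that is logarithmic above 1. The dashed line marks the 1% limit; 0 cells in either library lay between 0.9% and 1%, and most cells sat below 0.1%.

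Few cells lay close to the limit. The 3 lowest mural cells of the vehicle library had marker shares of 1.03%, 1.09% and 1.15%, and the 3 nearest cells outside had 0.889%, 0.869% and 0.859%. In the FGF21 library the 3 lowest mural cells had 1.05%, 1.24% and 1.44%, against 0.884%, 0.813% and 0.713% outside. Between 0.5% and 1.5% there were 21 vehicle and 9 FGF21 cells, so the limit fell into a sparse stretch of the distribution.

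Mural cells were shallow beside the other cells. Pericytes had a median of 2766 UMIs with vehicle and 3589 with FGF21, smooth muscle cells 3321 and 5635, and all other used cells 4372 and 6947.5. Summed, the pericytes gave 506850 and 127041 UMIs, and the smooth muscle cells 42560 and 41122. The median mitochondrial share was 6.17% and 5.75% in pericytes, but 4.87% and 12.7% in smooth muscle. The libraries shared 12 barcode indices, 0 of them mural. Levels below are UMIs per 1000000 UMIs of the class (CPM) in the vehicle and then the FGF21 library.

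By the rule itself, the median pericyte had a UMI of 7 of the 8 pericyte marker genes with vehicle and of 8 with FGF21. Of 29 other pericyte markers, 28 reached 20 UMIs in the pericytes. Rgs4, a regulator of G protein signalling, stood at 3380 and 3400 CPM in pericytes against 53.3 and 15.0 CPM in the other cells. Notch3, the Notch receptor of mural cells, stood at 1776 and 1401 CPM against 32.0 and 16.6 CPM. Cspg4, the NG2 proteoglycan that precursors of oligodendrocytes also make, was less selective, at 1172 and 1236 CPM against 470 and 759 CPM. Apart from the 11 genes, the genes with high ratios of mural over other cells in both libraries included Npy1r, Pla1a, Aspn, S1pr3, Nid1, Art3, Enpep, Tm4sf1 and Rgs4. Npy1r, a receptor of neuropeptide Y, measured 277 and 315 CPM in mural cells and 2.67 and 2.06 CPM elsewhere. Enpep encodes an aminopeptidase of the cell surface, and Nid1 a basement membrane protein.

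Transcripts of other cell types were present in the pericytes of both libraries, at levels that differed by type. In vehicle smooth muscle, border macrophage markers had 0 UMIs and endothelial markers 1 UMI. Summed microglia markers reached 8742 and 8981 CPM in pericytes, which is 26.5% and 41.1% of their level over all used cells of the same library. Astrocyte markers reached 26.1% and 30.2%, and oligodendrocyte markers 21.3% and 25.5% of theirs. Neuron markers reached 90.0% and 91.5% of theirs, at 290 and 433 CPM, and choroid plexus markers 36.3% and 52.9%. The microglia figures serve below as the size of a background of foreign RNA in pericytes. For foreign RNA that stood lower, as astrocyte and oligodendrocyte markers did with FGF21, this background can be too large. A mural cell with 2% or more of its UMIs from microglia markers was found 2 times with vehicle and 1 time with FGF21, against a median of 4.78% and 1.17% in the other cells. Endothelial markers summed to 288 and 197 CPM in pericytes and 208 and 142 CPM in the other cells. In pericytes this was 137% and 139% of their level over all used cells. All 10 had a UMI in vehicle pericytes, with 146 UMIs in sum. In FGF21 pericytes the sum was 25 UMIs, and Cldn5, Pecam1, Ly6c1, Itm2a and Cdh5 were at 0. Fibroblast markers summed to 1379 and 1047 CPM, of which Col1a2, a collagen gene that pericytes also carry, gave 625 and 394 CPM. The fibroblast genes Dpt and Igf2 were at 0 in pericytes of both libraries, but Igf2 had only 6 and 4 UMIs in the other cells. In vehicle pericytes Dcn (63.1 against 27.7 CPM) and Lum (13.8 against 4.84 CPM) were above the other cells. With FGF21, Dcn was at 7.87 against 8.11 CPM, and Lum had 0 UMIs. Slc6a13 stood at 144 and 126 CPM against 21.0 and 7.90 CPM. The list stood at 127% and 74.1% of its level over all used cells. The part of these foreign transcripts in the differences below was not tested, except where a value with the background subtracted is given. The other cells held mural transcripts in turn. There the 8 pericyte genes of the rule summed to 661 CPM with vehicle and 185 CPM with FGF21. The mix of the other cells also differed between the libraries, as their microglia shares above show. Ratios given below for the other cells carry both differences, whose part was not tested.

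The 8 pericyte genes of the rule chose the cells in both libraries, so their levels are a description. Rgs5, a regulator of G protein signalling, measured 11347 and 9139 CPM, and Vtn, which encodes the matrix protein vitronectin, 10271 and 10996 CPM. The channel genes were lower with FGF21, Abcc9 at 2083 and 1535 CPM and Kcnj8 at 1221 and 905 CPM. Pdgfrb, the receptor for endothelial PDGF, had 773 and 889 CPM, and Atp13a5, a P-type ATPase, 2190 and 2456 CPM. Higd1b had 874 and 716 CPM, and Ndufa4l2, a respiratory chain subunit homologue, 953 and 882 CPM. Of the 8, 0 differed by 1.5-fold or more, while 3 had an interval below equality and 1 above it. Over all 6281 genes with 20 or more UMIs, 17.4% were higher and 16.7% lower by 1.5-fold, and 299 had an interval below equality and 373 above it. The 1% limit holds these 8 genes up in both libraries, so the counts are not set against each other. A Kcnj8 UMI was missing from 40 of 175 vehicle and 6 of 34 FGF21 pericytes, and an Abcc9 UMI from 21 and 4.

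The cells called smooth muscle differed between the libraries in their UMIs of the contractile genes Acta2, Tagln and Myh11. These UMIs also made the call, so the counts only describe the called cells. The 12 vehicle cells had 5, 6, 6, 6, 7, 11, 15, 15, 19, 20, 24 and 26 UMIs of Acta2, Tagln and Myh11, and the 7 FGF21 cells had 10, 13, 32, 111, 130, 132 and 202. The ranges overlap, but 4 of 7 FGF21 cells and 0 of 12 vehicle cells had 100 or more. In smooth muscle, Acta2 (smooth muscle actin) summed to 2256 and 10238 CPM, Tagln (transgelin, an actin-binding protein) to 540 and 2699 CPM, and Myh11 (smooth muscle myosin) to 963 and 2383 CPM. The FGF21 cells were also deeper, and the cell with 202 contractile UMIs had 11576 UMIs in all.

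Pericyte genes were weaker in the same cells. Vtn stood at 5592 and 1119 CPM in the smooth muscle of the vehicle and FGF21 libraries, and Rgs5 at 10150 and 5058 CPM. All 12 vehicle smooth muscle cells had Rgs5 (3 to 115 UMIs) and Vtn (3 to 31 UMIs). Of the 7 FGF21 cells, 2 had at most 1 Rgs5 UMI and no Vtn, beside 132 and 130 contractile UMIs. Kcnj8 was missing from 10 of 12 and 5 of 7 smooth muscle cells, and Abcc9 from 9 and 6. The rule chose the cells on these genes, so their levels are given without a statement on the treatment. Acta2 lies at chr19:34241090-34255590 and Rgs5 at chr1:169655501-169695813 (GRCm38, GENCODE vM21). None of the used cells outside the mural set had 5 or more contractile UMIs (0 of 2167 and 0 of 1910).

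**Figure D2:**
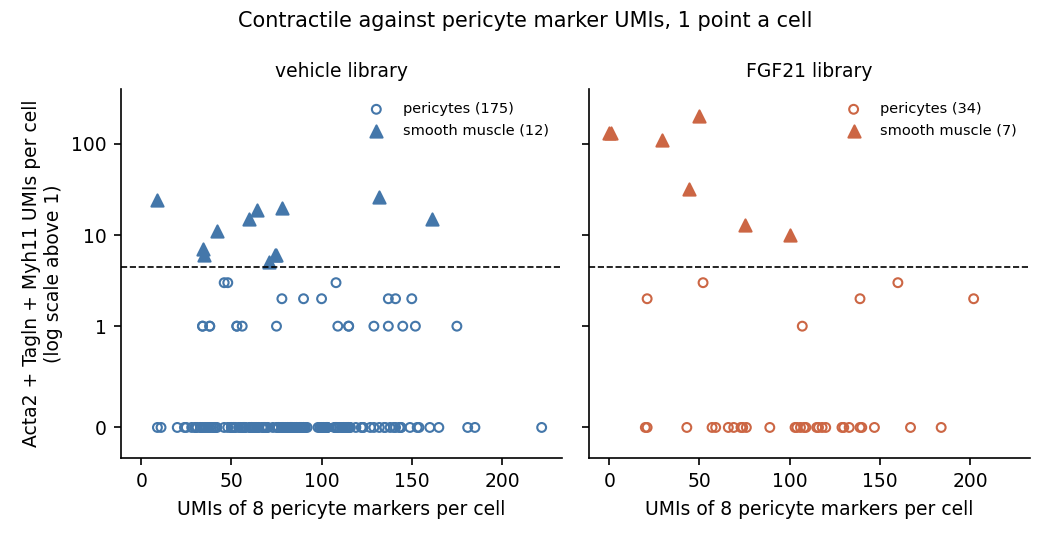
Each point is a mural cell: UMIs of the 8 pericyte markers on the x axis, and of Acta2, Tagln and Myh11 on the y axis (logarithmic above 1), in the vehicle (left) and FGF21 (right) library. Cells above the dashed line were called smooth muscle, 12 and 7 of them; 4 FGF21 cells lie above 100.

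Mural cells were also grouped by their contractile UMIs, which with the channel genes belong to the rule, so that the groups are a description. There were 150, 25, 9 and 3 vehicle cells and 28, 6, 2 and 5 FGF21 cells with 0, 1 to 4, 5 to 19 and 20 or more contractile UMIs, so the upper classes are thin. Kcnj8 went from 1330 to 659, 255 and 0 CPM over these vehicle classes, and from 931 to 816, 334 and 0 CPM over those of FGF21. Abcc9 went from 2121 to 1890, 223 and 0 CPM with vehicle and measured 1568, 1418, 0 and 31.1 CPM with FGF21. The 3 vehicle and 5 FGF21 cells with 20 or more contractile UMIs together had 0 Kcnj8 UMIs and 1 Abcc9 UMI, and such cells can pass the limit of 1% through the contractile genes alone. Tpm2, a tropomyosin gene outside the rule, measured 87.1, 280, 574 and 1695 CPM with vehicle and 152, 0, 1001 and 2428 CPM with FGF21. Cald1, the gene of the actin-binding protein caldesmon, did not follow Tpm2: it measured 3825, 3597, 2934 and 2766 CPM with vehicle and 3329, 3298, 1556 and 3175 CPM with FGF21. Pln, which encodes phospholamban, the brake on the calcium pump of the sarcoplasmic reticulum, had 0 UMIs in all pericytes of both libraries. It had 3 UMIs (ratio to pericytes from 4.92 upward) in vehicle and 60 UMIs (1459 CPM, in 5 of 7 cells) in FGF21 smooth muscle, the latter at least 61.8-fold above FGF21 pericytes with a floor of 3 UMIs.

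**Figure D3:**
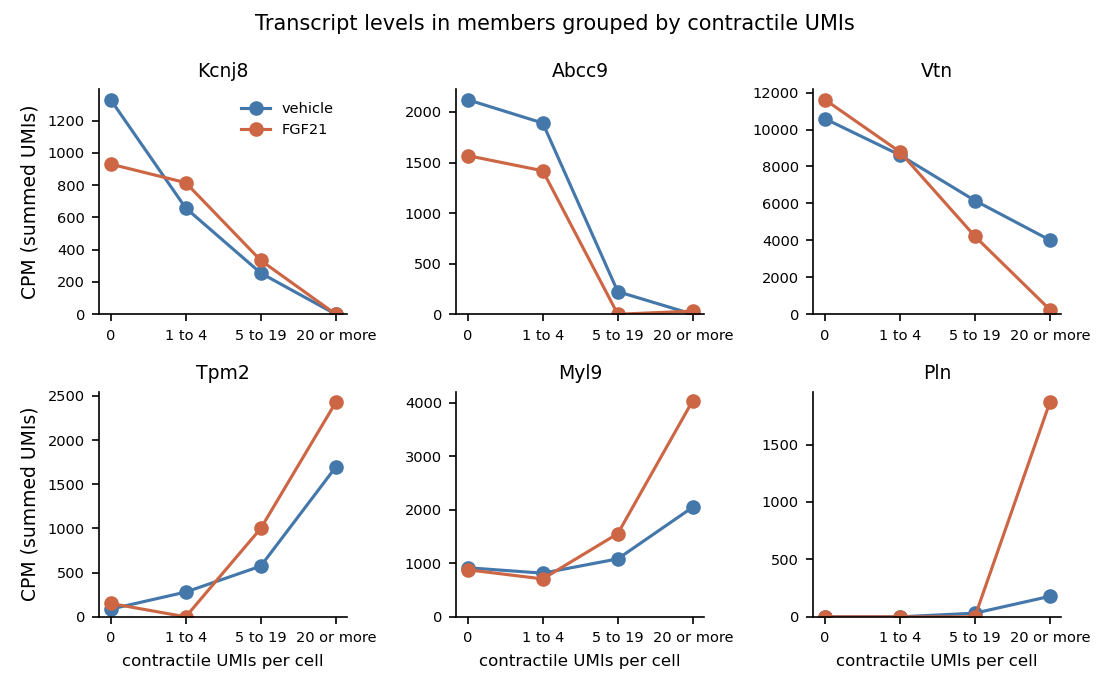
CPM of 6 genes in mural cells grouped by their UMIs of Acta2, Tagln and Myh11, with 1 line a library. Kcnj8, Abcc9 and Vtn are highest in cells without contractile UMIs, and Tpm2, Myl9 and Pln in cells with 20 or more.

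Smooth muscle was compared with pericytes within each library, leaving out the 11 genes. Of 3216 genes with 50 or more UMIs, smooth muscle was higher by 2-fold or more in both libraries for 92 (2.86%), and lower by as much for 126 (3.92%). In the vehicle library alone 8.86% were higher and 12.8% lower, and in the FGF21 library alone 11.4% and 21.5%. Genes that go with the 3 contractile genes are not independent of the rule, so these counts describe the 2 classes. Among the 27 other smooth muscle markers 15 reached 50 UMIs, and 8 of them were higher in both libraries: Crip1, Des, Flna, Mustn1, Pcp4l1, Pln, Tpm1 and Tpm2. Tpm1 measured 357 CPM in pericytes and 1974 CPM in smooth muscle with vehicle (ratio 5.53, 4.21 to 7.20), and 346 and 2797 CPM with FGF21 (8.07, 5.66 to 11.7). Des, the intermediate filament desmin, was 3.76-fold (1.79 to 7.35) and 12.4-fold (3.99 to 50.8) higher. Myl9, the regulatory light chain of myosin, was 1.49-fold (1.11 to 1.96) higher with vehicle and 4.16-fold (3.22 to 5.39) with FGF21, and so was not called in both.

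The other genes with the highest ratios were Rcan2, Ntn4, Atp1b1, Dgkb, Aoc3, Tinagl1 and Rgs7bp. Rcan2, an inhibitor of calcineurin, measured 9.86 and 282 CPM in vehicle pericytes and smooth muscle, and 7.87 and 900 CPM with FGF21. Ntn4, a netrin of basement membranes, measured 92.7 and 893 CPM, and 31.5 and 924 CPM. Aoc3, an amine oxidase of the vessel wall, measured 27.6 and 211 CPM, and 23.6 and 754 CPM. Smooth muscle thus stood above pericytes in these genes at both treatments. Of 30 genes of cyclic GMP signalling, calcium handling and ion channels, 20 were measured and 4 were higher: Atp2a2, the calcium pump that phospholamban brakes (ratios 2.52 and 2.25), Pde3a, a cyclic nucleotide phosphodiesterase (3.32 and 9.03), Atp2b4 and Stim1. Itpr2 was lower in both.

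Genes lower in smooth muscle included transporters, receptors and secreted factors. Slc22a8, an organic anion carrier of the blood-brain barrier, measured 539 CPM in vehicle pericytes and 1 UMI in smooth muscle (ratio 0.0436, up to 0.245). It measured 567 CPM in FGF21 pericytes and had 0 UMIs in smooth muscle, which is at least 7.77-fold lower. Slc6a20a, a proline carrier, was 0.236 and 0.257 times the pericyte level. Slc6a13, a GABA carrier that is also on the fibroblast list, had 73 and 16 UMIs in pericytes and 0 in smooth muscle. With a floor of 3 UMIs, Slc6a13 was at least 2.04-fold and 1.73-fold lower. Among the receptors, P2ry14, the UDP-glucose receptor, was at 0.298 and 0.267 times the pericyte level, S1pr3, a sphingosine 1-phosphate receptor, at 0.299 and 0.314, and Pth1r, the parathyroid hormone receptor, at 0.150 (0.0180 to 0.550) and 0.108 (0.0128 to 0.410). The secreted growth factor Ptn measured 5913 and 2044 CPM in vehicle pericytes and smooth muscle, and 6321 and 340 CPM with FGF21. Nodal, a ligand of the TGF-beta family, had 78 and 20 UMIs in pericytes and 0 in smooth muscle. Of the 29 other pericyte markers 27 were measured, 0 were higher and 6 lower (Ggt1, Gper1, P2ry14, Pth1r, S1pr3 and Slc6a20a). The remaining named genes, Itih5, Unc5b, Nuak1, Spp1, Gm14005, Myo6 and Pla1a, had 0 to 2 UMIs in smooth muscle of either library. With a floor of 3 UMIs, several had a lower bound under 2-fold. In vehicle these were Unc5b (1.93-fold), Nuak1 (1.51-fold), Gm14005 (1.32-fold) and Myo6 (1.29-fold). With FGF21 they were Nuak1 (1.94-fold), Gm14005 and Myo6 (1.51-fold each) and Spp1 (1.29-fold). The FGF21 interval of Spp1, up to 1.11, included equality. Calls of such genes at 2-fold rest on the 0.5 UMIs added.

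Notch3 was 1.98-fold (1.66 to 2.36) higher in vehicle smooth muscle and 1.18-fold (0.879 to 1.57) in that of FGF21. Timp3, an inhibitor of matrix proteases, was higher in both (2.71 and 3.04), as was Lamb2, a laminin chain, at 187 and 376 CPM with vehicle and 142 and 511 CPM with FGF21. Of the 12 Notch genes measured, 0 were called in both libraries.

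The CArG box, the binding site of serum response factor in many contractile genes, was looked for upstream of the markers. On either strand it was found in the 250 bases before the start of 1.47% of 32851 RefSeq promoters (GRCm38.p6). By gene, 1.62% of all symbols held one. Of the 30 smooth muscle genes, 24 had a promoter in the table and 2 held the box, Myl6 and Myl9. Tagln and Myh11 had no promoter in the table and were not searched. Of the 37 pericyte genes, 29 had a promoter and 0 held it. The stretch before Myl9 is shown because Myl9 is measured in both classes and was highest, in both libraries, in the cells with 20 or more contractile UMIs, with the box in capitals, starting 161 bases before the RefSeq start (chr2:156775214-156775419, plus strand, cut before the GENCODE gene body at 156775420).
Myl9: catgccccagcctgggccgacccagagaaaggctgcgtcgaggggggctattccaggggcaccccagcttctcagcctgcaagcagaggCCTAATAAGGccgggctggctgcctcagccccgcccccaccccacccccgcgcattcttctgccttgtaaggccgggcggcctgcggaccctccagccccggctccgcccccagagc
A match describes the letters only.

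FGF21 pericytes carried fewer heat shock transcripts than vehicle pericytes. The 17 listed heat shock genes, mostly cytosolic chaperones that a cell makes under proteotoxic stress, gave the median vehicle pericyte 6006 CPM (675 to 18501) and the median FGF21 pericyte 3503 CPM (320 to 7741). In smooth muscle the medians were 7951 CPM (5127 to 11805) and 2845 CPM (1990 to 4319), with no overlap between the libraries. The other used cells had 3307 and 3074 CPM. Vehicle mural cells were thus the ones that stood high. The pericyte ranges overlap, yet the lower quartile of the vehicle pericytes (4566 CPM) lay just above the upper quartile of the FGF21 pericytes (4540 CPM). Here too the treatment and the preparation of the libraries cannot be told apart.

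**Figure D4:**
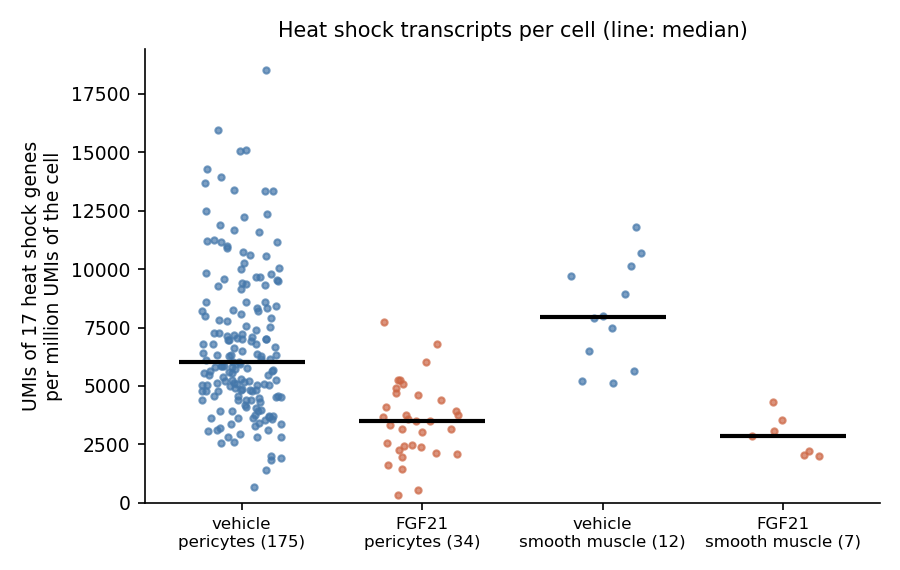
UMIs of the 17 heat shock genes as CPM of the cell, 1 point a cell, for pericytes (175 and 34) and smooth muscle (12 and 7) of the vehicle and FGF21 libraries; black lines are medians. The medians are 6006, 3503, 7951 and 2845 CPM from left to right.

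In pericytes 6281 genes had 20 or more UMIs, and with FGF21 17.4% of them were higher and 16.7% lower by 1.5-fold or more. Of the 16 heat shock genes measured, 12 were at least 1.5-fold lower and 1 was higher by as much. Their median log2 ratio was -1.06 (95% interval of the median -1.62 to -0.46), beside 0.03 over all genes and -0.27 for the same list in the other cells. The list had the lowest median of 21, and it stayed between -1.46 and -0.99 over 9 other settings.

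The inducible Hsp70 genes were the most uneven. Hspa1a had 85 UMIs in 52 of 175 vehicle pericytes and 2 UMIs in 2 of 34 FGF21 pericytes, or 168 and 15.7 CPM (ratio 0.0939, 0.0112 to 0.350). Hspa1b had 70 UMIs in 42 cells and 2 UMIs in 1 cell, or 138 and 15.7 CPM (0.114, 0.0135 to 0.427). These genes are near-identical copies, and reads may have been split between them. In the other cells they also were lower with FGF21, at ratios of 0.306 and 0.183. With every pericyte thinned to 2000 UMIs, Hspa1a was found in 38 of 149 and 1 of 30 cells.

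Hsp90aa1, the inducible cytosolic Hsp90, was lower in FGF21 pericytes and near level in the other cells. It had 423 and 34 UMIs in pericytes, or 835 and 268 CPM (ratio 0.321, 0.219 to 0.455), and 633 and 658 CPM in the other cells (ratio 1.04). After thinning to 2000 UMIs it was present in 102 of 149 vehicle and 11 of 30 FGF21 pericytes. The background predicted for the FGF21 pericytes was as high as the level measured there, so no ratio is given with the background subtracted. Hspa4l, an Hsp110 chaperone, had 129 and 7 UMIs (ratio 0.216, 0.0853 to 0.459; other cells 0.871), and a log2 ratio of -0.998 in place of -2.11 when pericytes were thinned to 1500 UMIs. Hspa8, the constitutive Hsc70, had 1022 and 441 CPM (0.431, 0.321 to 0.569; other cells 0.790), and a log2 ratio of -1.86 with the background subtracted. Dnaja1, a co-chaperone of Hsp70, had 616 and 276 CPM (0.448, 0.306 to 0.636; other cells 0.692).

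Hspb1, the small heat shock protein Hsp27, was concentrated in mural cells. It measured 923 and 464 CPM in pericytes and 41.0 and 8.89 CPM in the other cells, so its ratio was 0.503 (0.377 to 0.660) in pericytes and 0.217 elsewhere. Hsp90ab1, the constitutive Hsp90, differed less (1553 and 1126 CPM, ratio 0.725, 0.602 to 0.867). Dnajb1, another co-chaperone, went the other way with 31 and 16 UMIs (2.06, 1.05 to 3.88).

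**Figure D5:**
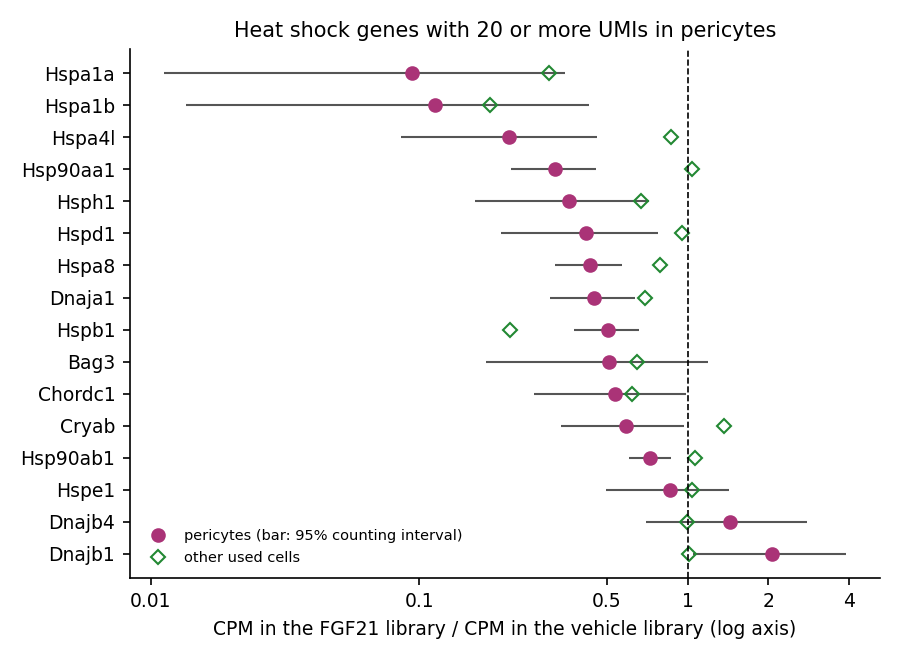
Ratio of CPM in the FGF21 to the vehicle library on a log axis for the 16 heat shock genes with 20 or more pericyte UMIs; filled circles with 95% counting intervals are pericytes, open diamonds all other used cells. In pericytes 12 genes lie at least 1.5-fold below equality and Dnajb1 lies at least 1.5-fold above it.

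Heat shock factor binds paired GAA and TTC units, and the letters GAANNTTC or TTCNNGAA, each its own reverse complement, were looked for in the 250 bases before each start. They occurred in 12.8% of the 32851 RefSeq promoters. Of the 17 heat shock genes 13 had a promoter in the table, and 8 of these held a match in at least 1 promoter: Dnaja1, Dnajb4, Hspa1a, Hspa1b, Hspb1, Hspd1, Hspe1 and Hsph1. By gene, 14.5% of all symbols held one. The stretches before Hspa1a and Hspb1 are shown because these genes had the lowest ratio and the most mural-restricted level of the list, with the matches in capitals. They start 104 bases before the start of Hspa1a (chr17:34972157-34972406, minus strand) and 117 and 97 bases before that of Hspb1 (chr5:135887669-135887918, plus strand).
Hspa1a: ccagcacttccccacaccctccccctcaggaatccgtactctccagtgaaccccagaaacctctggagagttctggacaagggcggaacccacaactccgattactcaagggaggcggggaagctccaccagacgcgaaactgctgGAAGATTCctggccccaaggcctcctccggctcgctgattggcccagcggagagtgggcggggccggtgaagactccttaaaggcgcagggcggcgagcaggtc
Hspb1: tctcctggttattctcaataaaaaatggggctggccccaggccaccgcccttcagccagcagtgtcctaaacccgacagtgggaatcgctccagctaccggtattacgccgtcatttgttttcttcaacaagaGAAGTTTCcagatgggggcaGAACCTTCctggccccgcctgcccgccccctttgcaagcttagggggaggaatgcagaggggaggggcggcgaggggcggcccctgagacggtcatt
Dnajb4 held a match and was not lower in pericytes (36 and 13 UMIs, ratio 1.44, 0.701 to 2.78).

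Over all genes, the pericytes of the libraries differed in a small share. With FGF21, 67 (2.38%) of the 2821 genes with 50 or more UMIs were higher by 2-fold or more, and 113 (4.01%) were lower by as much. All 67 higher genes had an interval off equality, but only 92 of the 113 lower ones did. In the other cells 3.26% of 13492 genes were higher and 2.23% lower. The background predicted more than 50% of the UMIs for 37 of the 67 higher genes and for 2 of the 113 lower ones. With the background subtracted, 53 genes were higher and 162 lower, of which 18 and 49 were among the first counts. This background follows the microglia level, 41.1% in FGF21 pericytes, where precursor and oligodendrocyte markers stood at 24.7% and 25.5%. It exceeded the UMIs measured over both libraries for some genes, such as Cpe (145%) and Cspg5 (133%). Remainders below 0 were set to 0, so the subtraction can take away too much. The highest ratios belonged to Cpe, Mt1, Cldn11, Bcan, Mal, Rtn1, Clu, Aplp1, Cspg5 and Ntrk2, most of them genes of other glia. Cldn11 and Mal are myelin genes, Bcan and Cspg5 proteoglycans of precursors and astrocytes, and all 10 were also higher with FGF21 in the other cells. Bcan, for example, had 333 and 1031 CPM in pericytes (3.09, 2.44 to 3.91) and 1015 and 2035 CPM elsewhere (2.01), and the background predicted 79.1% of its pericyte UMIs.

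The metallothioneins, small zinc-binding proteins, were higher too. Mt1 had 74 and 72 UMIs in pericytes, or 146 and 567 CPM (3.88, 2.77 to 5.44), against a ratio of 2.94 in the other cells. The background predicted 46.5% of its UMIs. After thinning to 2000 UMIs, Mt1 was found in 32 of 149 vehicle and 16 of 30 FGF21 pericytes. Mt3 had 38 and 25 UMIs (2.62, 1.52 to 4.46), with 73.8% predicted by the background.

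The lowest ratios outside the heat shock list belonged to genes with few UMIs. Osbpl3, a lipid transfer protein, had 84 and 3 UMIs (0.142, 0.0288 to 0.431), and its ratio in the other cells was 1.14. Polr2g, Slc25a51, Zdhhc5, Zic2, Pacsin3 and Atf7 had 49 to 67 UMIs in vehicle and 2 to 4 UMIs in FGF21 pericytes. Zic2, a transcription factor, was lower in the other cells as well (0.201), and the rest of these had ratios between 0.740 and 1.34 there. Pacsin3 had a log2 ratio of -0.35 when pericytes were thinned to 1500 UMIs, in place of -1.89.

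The 28 measured pericyte markers outside the rule had a median log2 ratio of -0.17 (-0.44 to 0.02), with 0 at least 1.5-fold higher and 6 lower, beside the 17.4% and 16.7% of all genes. Of these 28, 8 had an interval below equality and 1 above it, against 299 and 373 of the 6281 genes. The 6 included Enpep at 0.649 (0.441 to 0.932) and the RNA-binding gene Rbpms at 0.506 (0.320 to 0.770). The 15 measured smooth muscle markers had a median of -0.03, with 2 higher and 2 lower. Casq2, a calcium store protein of muscle, had 312 UMIs in 87 of 175 vehicle pericytes and 29 UMIs in 10 of 34 FGF21 pericytes (616 and 228 CPM, 0.371, 0.244 to 0.543). Its ratio in the other cells was 0.107, at 21.3 and 2.28 CPM. Cald1, Myl9 and Mylk, which serve contraction, had ratios of 0.877 (log2 0.076 with the background subtracted), 0.934 and 0.864. With smooth muscle cells included, Myl9 and Mylk turned to log2 ratios of 0.68 and 0.63, where 7 of 41 FGF21 and 12 of 187 vehicle cells were smooth muscle.

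Receptors for vasoactive signals showed 1 gene of 16 measured beyond 1.5-fold in its whole interval. Over all genes, 24 of the 67 that were at least 2-fold higher in FGF21 pericytes had such an interval, and 14 of the 113 lower ones. Tbxa2r (chr10:81328731-81335172), the thromboxane A2 receptor that drives contraction, had 62 UMIs in 37 of 175 vehicle pericytes and 41 UMIs in 19 of 34 FGF21 pericytes, or 122 and 323 CPM (2.64, 1.73 to 3.98). In the other cells it was lower with FGF21 (3.16 and 0.996 CPM), as was the sum of the 8 pericyte genes of the rule (661 and 185 CPM). The background predicted 1.46% of the Tbxa2r UMIs in pericytes. Thinned to 2000 UMIs, Tbxa2r was found in 27 of 149 (18.1%) and 13 of 30 (43.3%) pericytes. Its log2 ratio stayed between 1.08 and 1.71 over the settings tried. Of the 40 listed receptors 16 were measured, with a median of -0.05. At least 1.5-fold higher were 2 and lower 3, beside the 17.4% and 16.7% of all genes. P2ry14 was at 1184 and 819 CPM (0.692, 0.556 to 0.853), S1pr3 at 629 and 464 CPM, Pth1r at 314 and 449 CPM (1.43, 1.04 to 1.95) and Npy1r at 251 and 260 CPM. Ednra, the endothelin A receptor, was at 235 and 252 CPM.

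Channels and cyclic GMP genes had a median of -0.04 over 22 measured genes, with 2 higher and 5 lower. This count, and those of the lists that follow, stand beside the 17.4% higher and 16.7% lower of all genes. Gucy1b1, a subunit of the nitric oxide receptor, was at 625 and 897 CPM (1.43, 1.15 to 1.78). Ano1, the calcium-activated chloride channel that depolarises mural cells, was at 430 and 252 CPM (0.586, 0.391 to 0.851). Pde8b stood at 657 and 842 CPM and Atp2a2 at 475 and 520 CPM. Of the recruitment and junction genes, Gja4, the gap junction protein connexin 37, had 115 and 53 UMIs (227 and 417 CPM, 1.84, 1.30 to 2.57), with a ratio of 0.234 in the other cells. Gjc1, connexin 45, was level at 773 and 827 CPM. Their list had a median of 0.30 over 18 genes, 3 higher and 2 lower. Notch genes had a median of -0.19 over 15 genes, 2 higher and 2 lower, with Notch3 at 0.789 (0.668 to 0.928), Notch1 at 1.17, Heyl at 0.863 and Hes1 at 0.904.

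The 25 measured basement membrane genes had a median of -0.03, 1 higher and 4 lower. Sparc had 2677 and 2708 CPM and Itga1 1618 and 1629 CPM, while Sparcl1 had 3583 and 3086 CPM (log2 0.11 over all mural cells) and Mfge8 1448 and 1629 CPM. The 18 secreted factors had a median of -0.39 (-1.17 to 0.06), 0 higher and 6 lower, beside the 16.7% of all genes that were lower. Ptn, the most abundant of them, was level at 5913 and 6321 CPM, and Igfbp7 measured 3871 and 2952 CPM (0.763, 0.681 to 0.852). Il34, a ligand of the microglial Csf1 receptor, measured 361 and 252 CPM (0.698, 0.464 to 1.02), and Spp1, osteopontin, had 112 and 12 UMIs (0.427, 0.214 to 0.777). Serpine2, a protease inhibitor, measured 1.35 (1.04 to 1.72), but a log2 ratio of -0.58 with the background subtracted. The 22 carriers and pumps had a median of -0.16, 4 higher and 2 lower. Atp1b2, Slc6a20a and Slc12a2 had ratios of 0.873, 0.889 and 0.871.

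FGF signalling genes were sparse. Klb had 0 UMIs in all 175 vehicle pericytes (exact upper limit 2.09% of cells), in all 34 FGF21 pericytes (10.3%) and in all 12 and 7 smooth muscle cells. These limits concern cells with a UMI at this depth, not cells that express the gene. The other cells had 3 Klb UMIs with vehicle and 0 with FGF21. Fgfr1 had 55 and 17 UMIs in pericytes, or 109 and 134 CPM (1.23, 0.671 to 2.16), against 51.6 and 76.3 CPM elsewhere. Thinned to 2000 UMIs, it was found in 15.4% of vehicle and 20.0% of FGF21 pericytes and in 8.43% and 12.4% of the other cells. Fgfr2 had 2 and 1 UMIs, Fgfr3 6 and 6, Fgfr4 0 and 0, Fgfrl1 13 and 5, and the alternative co-receptor Kl 10 and 1. The adaptor Gab1 was lower with FGF21 (245 and 102 CPM, 0.418, 0.217 to 0.742; other cells 1.09), while Grb2 was at 0.596 (0.305 to 1.07), Ptpn11 at 0.931, Frs2 at 63.1 and 63.0 CPM, Sos1 at 26 and 2 UMIs, and Frs3 at 2 and 0 UMIs. Over the 6 measured genes of this list the median was -0.38, 0 higher and 3 lower, beside the 17.4% and 16.7% of all genes.

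Feedback genes of the FGF and ERK pathway had a median of 0.12 over 13 genes, 2 higher and 1 lower, beside the 17.4% and 16.7% of all genes. Spry4, an inhibitor that ERK signalling induces, had 121 and 49 UMIs (239 and 386 CPM, 1.62, 1.13 to 2.27), but also a ratio of 1.74 in the other cells. Etv5, an ERK-induced transcription factor, had 54 and 25 UMIs (107 and 197 CPM, 1.85, up to 3.02; other cells 1.41). Phlda1, Dusp6 and Spred1 had ratios of 1.08, 1.26 and 1.45, with intervals that include equality.

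The tdTomato transcript, the product of the reporter used for the sort, had a higher CPM in pericytes than in the other cells. It had 91 UMIs in 55 of 175 vehicle pericytes (31.4%, 24.6 to 38.9) and 20 UMIs in 8 of 34 FGF21 pericytes (23.5%, 10.7 to 41.2), or 180 and 157 CPM against 63.1 and 74.4 CPM elsewhere. Thinned to 2000 UMIs, 22.8% of vehicle pericytes (16.3 to 30.4) and 10.7% of the other vehicle cells (9.37 to 12.1) had a UMI, and these intervals do not overlap. With FGF21 the shares were 20.0% (7.71 to 38.6) and 13.1% (11.6 to 14.8), and they do. Most pericytes thus had no reporter UMI at this depth, although the sort selected for the protein.

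Stress and metabolic lists other than heat shock showed smaller medians. Their counts at 1.5-fold stand beside the 17.4% higher and 16.7% lower of all genes. Immediate early genes had 0.41 over 13 genes, 3 higher and 0 lower, with Jund at 781 and 1236 CPM (1.58, 1.31 to 1.91; other cells 1.24), Cebpd at 0.911, Btg2 at 1.24 and Klf6 at 0.709. Endoplasmic reticulum chaperones had 0.01 over 18 genes, 0 higher and 4 lower: Hspa5 was at 0.717 (0.571 to 0.891), Calr at 1.31 (1.08 to 1.57), Hsp90b1 at 1.15 and Canx at 1.29. Metallothionein and redox genes had 0.14 over 19 genes, 4 higher and 0 lower, glycolysis and hypoxia genes -0.07 over 19 genes, 4 higher and 4 lower, and respiratory chain genes 0.07 over 43 genes, 2 higher and 1 lower. Epas1, the hypoxia-inducible factor 2 alpha of vessels, had 488 and 81 UMIs (0.662, 0.517 to 0.839; other cells 1.24). Ribosomal protein genes had 0.19 (0.01 to 0.33) over 45 genes, 6 higher and 1 lower, beside 0.20 in the other cells. Antigen presentation and inflammation genes had -0.24 over 10 genes, 0 higher and 2 lower. The 3 measured sex-linked genes, all on the Y chromosome, had -0.75, 0 higher and 2 lower.

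Glucocorticoid-induced genes were uneven. Of 10 measured, 2 were at least 1.5-fold higher and 5 lower, beside the 17.4% and 16.7% of all genes. Their median was -0.62 (-2.22 to 0.79). Zbtb16, a transcription factor that glucocorticoids induce, had 40 UMIs (78.9 CPM) in vehicle and 0 in FGF21 pericytes, which is at least 3.34-fold lower with a floor of 3 UMIs. It had 5 and 0 UMIs in smooth muscle, and a ratio of 0.135 in the other cells. Klf9, another induced factor, had 460 and 276 CPM (0.599, 0.408 to 0.858) and went the other way elsewhere (1.36). Tsc22d3, Nfkbia and Errfi1 had ratios of 1.04, 0.712 and 0.675, each with an interval that includes equality.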

How the data were processed

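Per the file headers, version 1.9.1 of the Rhapsody WTA pipeline (BD) produced the values, deposited as UMI counts for every barcode and gene. The genome was GRCm38 per the submitters' processing notes. The annotation counted on is not given in the sources used here. Cells were kept with at least 500 UMIs, 300 genes and at most 25% mitochondrial UMIs. The mural cells, gene lists and alternatives were chosen with earlier results of these data known. UMIs were summed per class and library. Log2 ratios added 0.5 UMIs. Ratios had exact conditional binomial, and shares exact Clopper-Pearson, 95% intervals. Genes with at least 50 UMIs were called at 2-fold. List medians, with order-statistic intervals, used members with at least 20 UMIs. The background was a library's profile times the level of microglia markers in the class. The ratio step was tested on simulated data. Scrublet (scanpy 1.11.5) called 17 vehicle and 16 FGF21 doublets, 3 and 1 of them mural, which were kept except in 1 alternative.

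Genes were named from a rule: the 11 markers, the 4 most abundant members of each of 21 lists, list members with 50 or more UMIs and an interval beyond 1.5-fold, the FGF receptor complex, the 10 genes highest over other cells, and the 10 highest and 10 lowest ratios of each comparison. For the pericyte ratios, a UMI in 10% of cells and at most 20% of UMIs in 1 cell were required. Some genes of the stress and metabolic lists are given by list only, and some genes the rule names are not reported here. Other names, such as Zbtb16, Etv5, Ednra, Enpep, Rbpms, Dnajb1, Dnajb4 and Spp1, were chosen after their values were seen, as were the heat shock letters. Positions are from GENCODE vM21.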

Additional observations from a re-analysis of the deposited data

Results flagged for a closer look

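Mural transcripts also appeared in barcodes outside the cells compared. In the vehicle library 8 barcodes that the filter left out, and in the FGF21 library 1, took 1% or more of their UMIs from the 11 marker genes. The 8 had a median of 377 UMIs and 39.1% mitochondrial UMIs, and the 1 had 400 UMIs and 55.0%.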

How the results depend on the processing

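No paired analysis was possible because each treatment had 1 library. The mural share of the vehicle library was 6.80% at a marker limit of 2% and 6.67% with no filter on cells, both outside its interval. Genes at least 2-fold apart in pericytes numbered 15 higher and 17 lower at 100 or more UMIs, 454 and 484 at 20 or more, and 28 and 53 with pericytes thinned to 1500 UMIs, a setting added after the data were seen. Fewer or more genes were tested in these, 1219, 6281 and 1119. Of the 28 and 53 genes after thinning, 13 and 11 were among the 67 and 113 counted first. With a pseudocount of 2 UMIs 72 were higher and 54 lower, in place of 67 and 113. The excess of lower over higher genes in pericytes thus depended on the pseudocount and was reversed at this setting. Smooth muscle and pericytes differed in 35 and 51 genes at 100 or more UMIs, of 1426 tested. Of 936 log2 ratios of named genes under alternatives 893 lay within the first interval, 40 moved and 3 whose interval lay off equality changed sign: Cald1 (0.076) and Serpine2 (-0.58) with the background subtracted, and Sparcl1 (0.11) with all mural cells; the cause was not tested. Ratios whose interval included equality, such as those of Myl9 and Mylk over all mural cells, could also cross 0 and are not among the 3. List medians stayed within their intervals in 184 of 189 cases. The 34 FGF21 pericytes and 19 smooth muscle cells limit all ratios, and list medians leave out genes with under 20 UMIs.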
